A study of Mus musculus with 6 samples.

Results

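Gr-1high myeloid cells from the spleens of wild-type mice bearing an AT-3 tumor were compared with the same sorted cells from wild-type mice that had no tumor. The comparison uses 4 of the 6 Illumina bead arrays of the series, 2 for each group, and covers 15170 of 45281 probes: those whose detection p-value was below 0.05 on 2 or more of the 4 arrays. The cells were sorted as CD11b+Gr-1high to over 97% purity by flow cytometry, in 2 independent experiments, and the mice were on the H-2b background. AT-3 is a transplantable mouse mammary carcinoma line. A further pair of arrays, from IRF8 KO mice with no tumor, belongs to the same series and was used for the shared estimate of the spread and for 1 direct comparison. The sources used here do not give the age of the mice, the size or duration of the tumors, the number of animals behind an array or which experiment an array came from. The p-values therefore measure the spread between these arrays, which may be in part technical, and 2 arrays a group limit the precision of every value.

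Gr-1 antibodies bind Ly6G, which marks neutrophils, and also Ly6C, which monocytes carry as well. In a tumor-bearing mouse the spleen becomes a site of myelopoiesis, and immature granulocytic cells accumulate there together with cells called myeloid-derived suppressor cells. A neutrophil makes its granule proteins in a fixed order during maturation: first the serine proteases and myeloperoxidase of primary granules in the promyelocyte, then the secondary granule proteins in the myelocyte, and last the tertiary granule and surface proteins of the mature cell, which no longer divides. Interferon-stimulated genes, immediate early genes and NF-kappaB target genes are in contrast switched on by signals that the cell receives.

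All levels below are log2 intensities after background correction and quantile normalization, and a difference of 1 is a 2-fold change. Each gene is represented by its brightest probe, and differences are AT-3 minus wild type with their standard error (SE) and limma's Benjamini-Hochberg adjusted p over all genes tested. A gene is called where this adjusted p is under 0.05, and the words rose and fell are used for called genes only. If neither array of the dimmer group detected the gene's probe, a lower bound replaces the fold: the brighter group's mean over the lowest signal that counted as detected.

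The wild-type arrays had mean signals of 397 and 379 units and the AT-3 arrays 284 and 265, while 31.0% to 32.9% of probes were detected on each of these 4 arrays. Across genes, the array values correlated with r = 0.990 within the wild-type pair and r = 0.978 within the AT-3 pair. Of the 15170 probes, 10708 were detected on all 4 arrays, 661 on both AT-3 arrays and no wild-type array, and 1197 on both wild-type arrays and no AT-3 array. The 2648 probes just inside the rule, detected on 2 of the 4 arrays, had a median signal of 127.4 units, and the 4149 just outside it, detected on 1, had 121.4 units. The probes stood for 10919 genes or unnamed probes, of which 8553 had a gene symbol, and all are called genes here.

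Granulocyte transcripts such as S100a8 and S100a9 were high on every array, as the sort would select, but Itgam, which encodes CD11b, read only 6.20 to 8.48. Of 17 measured granulocyte identity genes 4 rose and 2 fell, a called share of 35.3%, near the 39.9% over all genes. The alarmin subunit S100a8 read 15.07 and 15.07 on the AT-3 arrays and 14.92 and 14.85 on the wild-type arrays. Its partner S100a9 read 14.70 and 14.71 against 14.19 and 14.35, and neither difference passed the test. Transcripts of monocytes and macrophages were measured as well, among them Csf1r at 9.34 and 9.86 on the AT-3 arrays and 11.14 and 10.97 on the wild-type arrays. Hemoglobin and other erythroid transcripts were also present, and they differed between the groups. The B cell antigen Ms4a1 was near the detection limit on all 4 arrays, at 4.94 and 4.67 against 5.25 and 5.01, and Ncr1 of NK cells, Pf4 of platelets and Epx of eosinophils were detected on none of them. The T cell transcript Cd3d was detected on all 4 arrays at 7.27 and 6.13 against 7.85 and 8.09. In sorted bulk RNA, fewer cells of a type and less RNA per cell cannot be told apart.

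The 2 groups differed at a large share of the genes. Of the 10919 genes, 2160 rose (19.8%) and 2198 fell (20.1%) in cells from tumor-bearing mice, together 39.9%, and over all 12492 genes tested in the series 34.9% were called. The change was at least 2-fold for 3186 called genes. For 8328 genes (76.3%), the 2 AT-3 arrays and the 2 wild-type arrays did not overlap. For a gene detected in 1 group only, the direction of the difference is largely set by that detection, and 731 such genes were called. The count was therefore also taken over the 9687 genes detected on at least 1 array of each group, and there 1902 rose and 1725 fell. The count of calls depended on each array: it was 1714 without wild-type array 1, 1531 without wild-type array 2, 2554 without AT-3 array 1 and 3100 without AT-3 array 2, against 4360 with all arrays. The near-even split of higher and lower calls depended on the scaling. With no scaling between arrays 734 genes were higher and 4834 lower, and the median difference over all genes was -0.60 instead of -0.01; with the median of the detected probes set equal, 3206 were higher and 2031 lower, with a median of 0.24. Changes are therefore read relative to the bulk of genes.

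**Figure D1:**
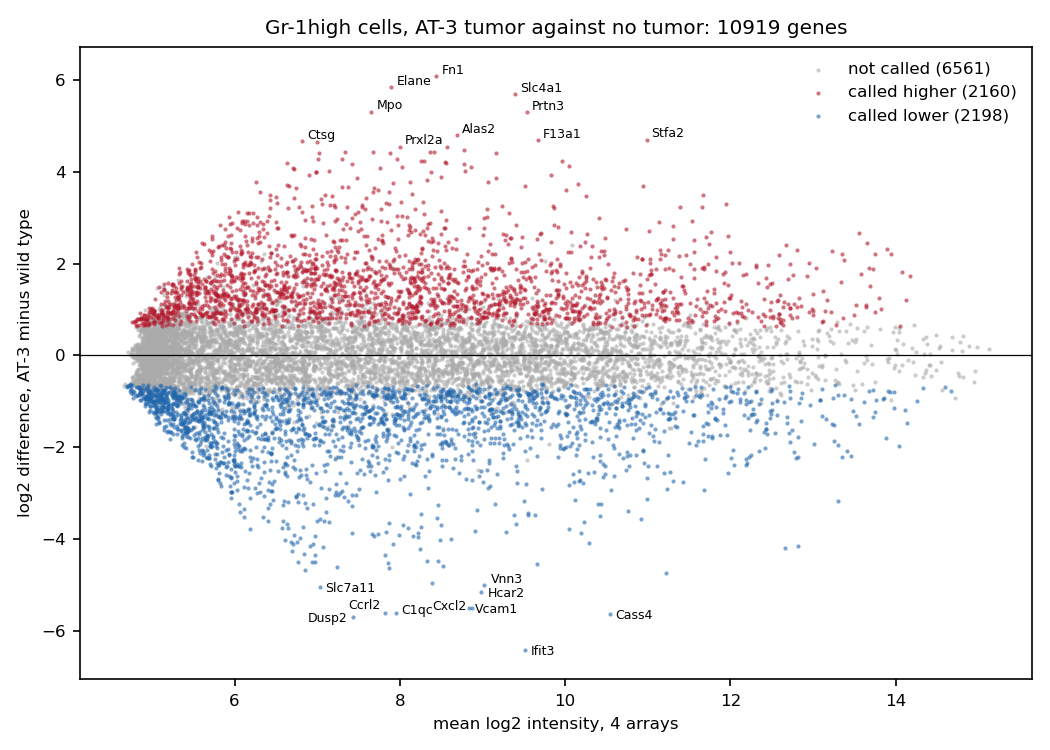
Level and difference of each of the 10919 genes. The x axis is the mean log2 intensity over the 4 arrays and the y axis the log2 difference AT-3 minus wild type; each point is 1 gene, with called genes in red (2160 higher) and blue (2198 lower), and the 10 largest called rises and falls by name. Called genes lie on both sides of 0 at every brightness, and the largest differences reach about 6 log2 units either way.

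**Figure D2:**
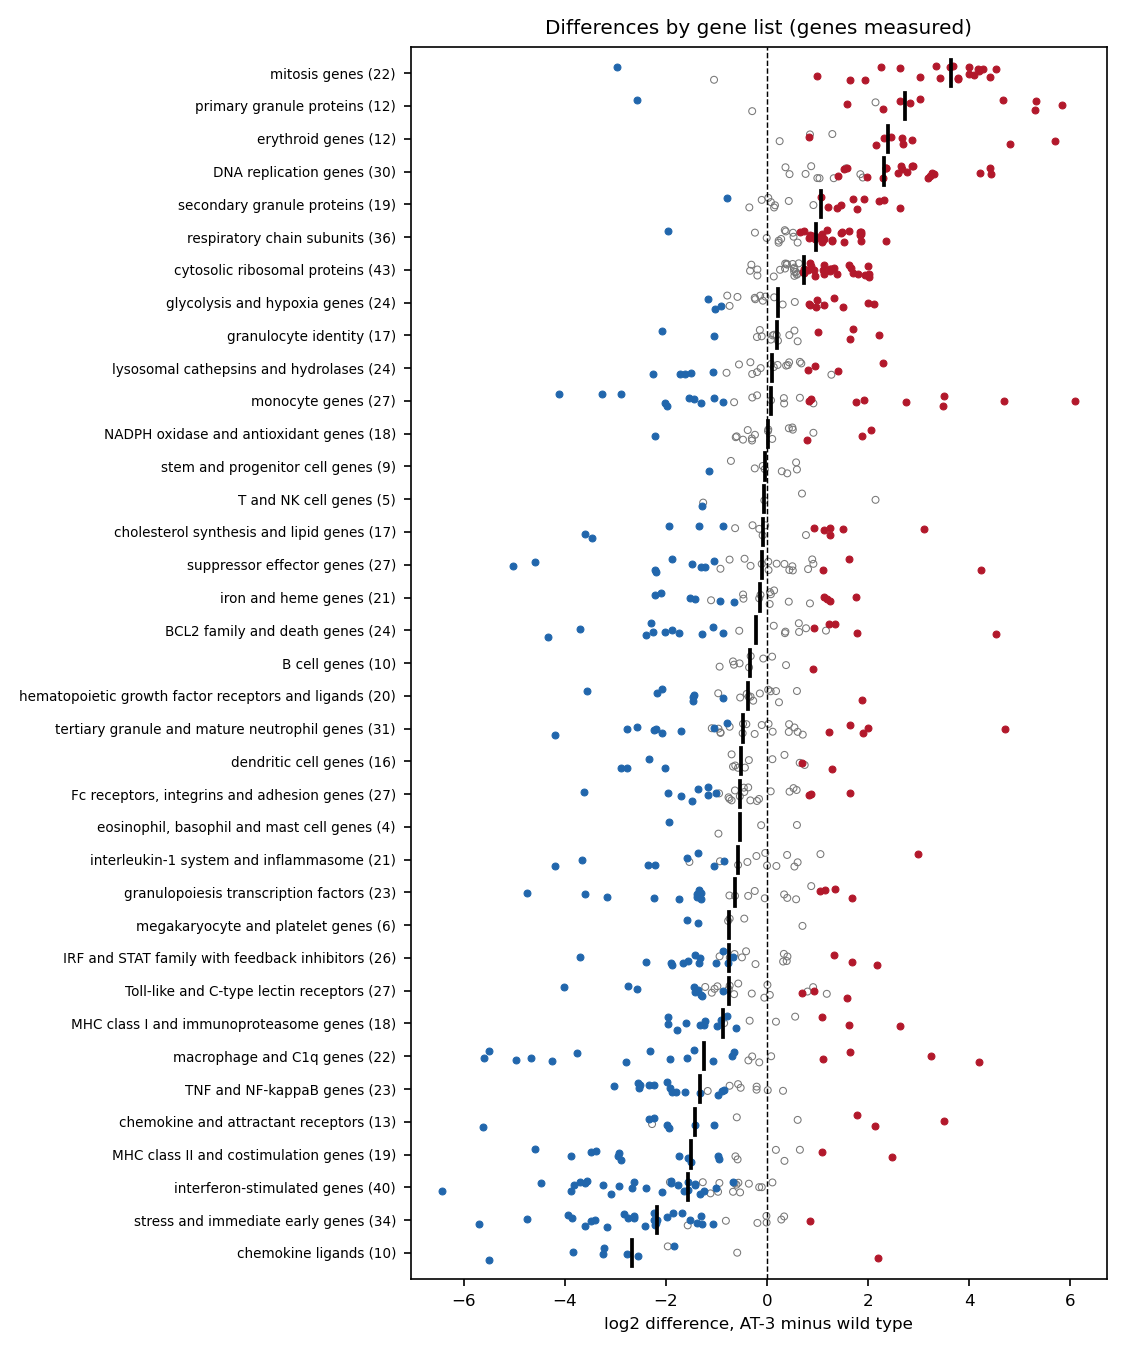
Differences of the measured genes of 37 gene lists. Each point is the log2 difference AT-3 minus wild type of 1 gene, filled where it was called; the bar is the list's median and the dashed line the median of all 10919 genes (-0.01). Mitosis, primary granule, erythroid and DNA replication genes lie furthest to the right, and chemokine ligands, stress and immediate early genes and interferon-stimulated genes furthest to the left.

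The genes of the promyelocyte were among the largest rises. Elane, which encodes neutrophil elastase, read 10.49 and 11.14 on the AT-3 arrays and 4.83 and 5.12 on the wild-type arrays. Mpo, encoding myeloperoxidase, read 9.84 and 10.78 against 5.32 and 4.68. Prtn3, encoding proteinase 3, read 11.96 and 12.41 against 6.94 and 6.83. For all 3 genes both AT-3 arrays lay far above both wild-type arrays. Elane rose by 5.84 ± 1.08 (SE, adjusted p = 0.00676), Mpo by 5.32 ± 0.93 (adjusted p = 0.00556) and Prtn3 by 5.30 ± 1.04 (adjusted p = 0.00835). Ctsg, encoding cathepsin G of the same granules, was detected on no wild-type array and was at least 18.3-fold higher. Ctsc, whose product activates these proteases by trimming their ends, rose from 10.16 and 10.04 to 12.17 and 12.61. Of the 12 measured primary granule genes 9 rose, with a median difference of 2.73, and 6 to 8 rose when 1 AT-3 or wild-type array was left out in turn, the fewest without wild-type array 1. Among the 10 detected in both groups 7 rose. Without background correction, and on the authors' own normalized values, the calls of Elane, Mpo and Ctsg were lost (adjusted p of 0.0529 for Elane). The call of Prtn3 was lost without either wild-type array, and that of Ctsg without wild-type array 1. The exception in the list was Srgn, the proteoglycan serglycin that packs granule proteins, which fell from 11.75 and 11.79 to 8.49 and 9.90.

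The letters GAGGAA, a core that ETS factors such as PU.1 can bind, were in 7 of the 8 promoters available for these 9 genes, against 27.5% of the 7027 promoters of all named genes (both strands searched, windows of 300 bases). The letters TTGCNNAA, which C/EBP factors can bind, were in 1 of the 8, against 8.33% of all. The promoter of Elane is shown because this gene had the largest rise of the group (chr10:79886062-79886361, plus strand, GRCm38.p6, RefSeq), with the matching letters in capitals. A match describes the sequence and is not a known binding site.
Elane: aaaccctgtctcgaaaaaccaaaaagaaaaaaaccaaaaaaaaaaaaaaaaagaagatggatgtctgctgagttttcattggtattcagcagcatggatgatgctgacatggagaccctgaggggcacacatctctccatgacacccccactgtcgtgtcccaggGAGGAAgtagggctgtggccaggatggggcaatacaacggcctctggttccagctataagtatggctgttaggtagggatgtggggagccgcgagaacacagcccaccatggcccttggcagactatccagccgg

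Secondary granule genes rose in 10 of 19 cases, with a median of 1.06, and 6 to 9 with 1 AT-3 or wild-type array left out, the fewest without wild-type array 1. Olfm4, encoding olfactomedin 4, read 10.10 and 9.33 against 7.64 and 7.18 and rose by 2.31 ± 0.36 (adjusted p = 0.0039). Cd177, a surface protein of neutrophils, read 14.48 and 14.44 against 12.28 and 12.19 and rose by 2.22 ± 0.20 (adjusted p = 0.000781). Ngp, neutrophilic granule protein, rose by 1.21 ± 0.20, and the call was lost without wild-type array 2. Camp, encoding the antimicrobial cathelicidin, rose by 1.06 ± 0.24, a call lost without wild-type array 1, without AT-3 array 1 and with no scaling. Ltf, encoding lactoferrin, stood at 14.93 and 15.11 against 14.51 and 14.68, near the top of the scale in both groups, and its difference of 0.43 ± 0.21 did not pass (adjusted p = 0.152). The tertiary granule enzyme Mmp9 showed no call either, at 13.42 and 13.24 against 13.37 and 13.50, and its difference of -0.11 turned to 0.066 with the median of the detected probes set equal.

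Genes of mature neutrophils went both ways, 5 of 31 higher and 9 lower, a called share of 45.2%, near the 39.9% over all genes. The number of calls depended on which array was left out, and the list's median of -0.48 then ranged from -0.62 to -0.34. The rises were led by stefin A genes, which encode inhibitors of cathepsins. Stfa2 read 13.81 and 12.87 on the AT-3 arrays and 8.46 and 8.80 on the wild-type arrays, a rise of 4.70 ± 0.43 (adjusted p = 0.000781), and Stfa1 rose by 1.99 ± 0.30. The stefin A genes are a cluster of close copies, so a probe may read more than 1 of them. Wfdc21 rose by 1.89 ± 0.29. Csf3r, the receptor for granulocyte colony-stimulating factor, read 10.65 and 11.97 against 13.39 and 13.39 and fell by 2.08 ± 0.40 (adjusted p = 0.00783), a call that was lost without either wild-type array. Cxcr2, the receptor that takes mature neutrophils into blood, fell by 1.06 ± 0.33 with adjusted p = 0.0438, and the call was lost without AT-3 array 1 or either wild-type array. The pairs did not overlap for either receptor, but AT-3 array 1 was lower than AT-3 array 2 in both. Itgam, the CD11b used for the sort, read 8.34 and 8.48 against 7.33 and 6.20, a rise of 1.65 ± 0.36 whose call was lost without either AT-3 array, without wild-type array 2 and with no scaling.

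**Figure D3:**
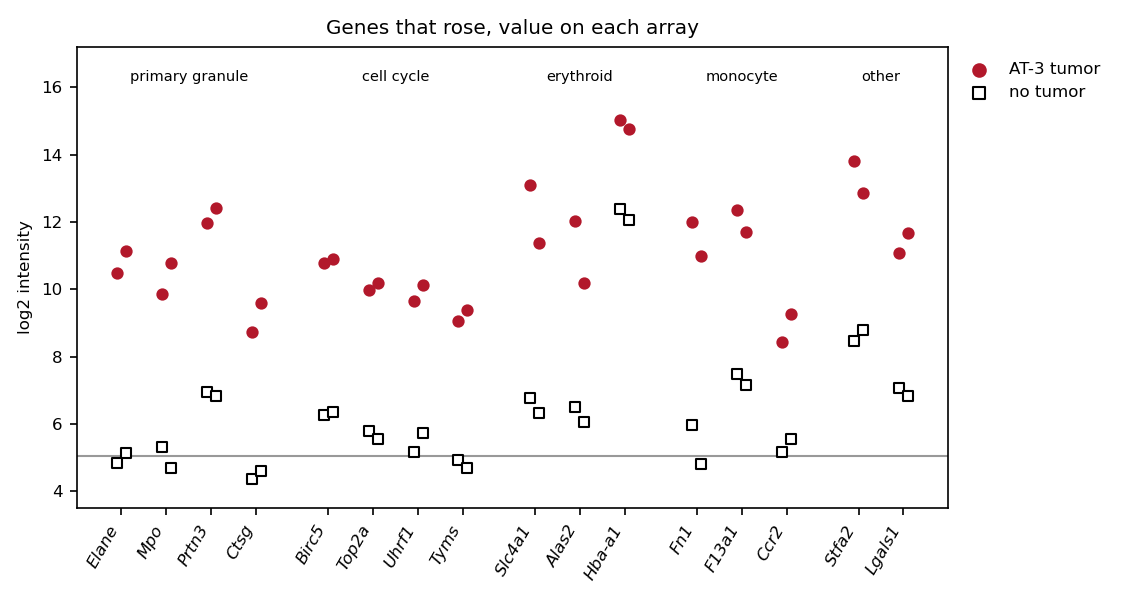
Log2 intensity on each of the 4 arrays for 16 genes that rose. Circles are AT-3 arrays and squares wild-type arrays, 2 each, grouped by kind; the grey line at 5.04 is the highest, over the 4 arrays, of the lowest level that counted as detected. The AT-3 and wild-type points do not overlap for any of these genes, and wild-type points of Elane, Mpo, Ctsg, Uhrf1, Tyms, Ccr2 and Fn1 lie at or near the grey line.

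Among factors that direct granulocyte development, 4 of 23 rose and 10 fell, a called share of 60.9% against 39.9% over all genes. Of all genes 19.8% rose and 20.1% fell. The number of calls depended on which AT-3 or wild-type array was left out, and the list's median of -0.64 then ranged from -0.65 to -0.46. Cebpe, which drives the secondary granule program, read 11.90 and 11.16 against 10.45 and 10.30, and Klf5 read 10.56 and 10.09 against 9.09 and 8.85. Their rises of 1.15 ± 0.28 (adjusted p = 0.0183) and 1.35 ± 0.25 (adjusted p = 0.00664) were lost with no scaling between arrays and without wild-type array 2, and that of Cebpe also without wild-type array 1 or AT-3 array 1. The falls were led by Egr1, Egr2 and Junb, which are also immediate early genes. Irf8, which favours monocytes over granulocytes in development, read 8.82 and 8.09 on the AT-3 arrays and 6.86 and 6.70 on the wild-type arrays. It rose by 1.67 ± 0.31 (adjusted p = 0.00651), and this call was lost without wild-type array 2 and with no scaling.

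Transcripts of dividing cells formed the group with the highest median. Birc5, the survivin subunit of the chromosomal passenger complex, read 10.77 and 10.91 on the AT-3 arrays and 6.25 and 6.36 on the wild-type arrays. Top2a, the topoisomerase that untangles replicated DNA, read 9.99 and 10.19 against 5.80 and 5.55. Plk1, a mitotic kinase, read 9.92 and 10.30 against 5.81 and 5.85. All wild-type values were low on the scale and all AT-3 values were near 10 or above. Birc5 rose by 4.54 ± 0.43 (adjusted p = 0.000891), Top2a by 4.42 ± 0.54 (adjusted p = 0.00175) and Plk1 by 4.28 ± 0.44 (adjusted p = 0.00107), and Cdca3, a trigger of mitotic entry, rose by 4.49 ± 0.45. In all, 20 of 22 measured mitosis genes rose, with a median difference of 3.64 (3.78 over the 18 detected in both groups), and 17 to 19 rose in the fits with 1 array left out. Pttg1, encoding securin, went the other way, from 7.46 and 7.43 to a level detected on no AT-3 array, at least 5.29-fold lower.

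DNA replication genes moved with them. Tyms, which makes thymidylate, was detected on no wild-type array and read 9.07 and 9.38 on the AT-3 arrays, at least 19.2-fold higher. Uhrf1, which carries DNA methylation through replication, read 9.66 and 10.11 against 5.17 and 5.74 and rose by 4.43 ± 0.70 (adjusted p = 0.0039). Mcm5, a subunit of the replicative helicase, read 10.36 and 10.95 against 6.31 and 6.57 and rose by 4.21 ± 0.78 (adjusted p = 0.0069). Of 30 measured genes 20 rose and none of the other 10 was called lower, with a median of 2.32, and 6 to 11 rose with 1 AT-3 or wild-type array left out, the fewest without wild-type array 1. Among the 21 detected in both groups 14 rose. Both cell cycle lists stayed on the higher side with no scaling between arrays, with medians of 2.82 for mitosis and 1.62 for replication. Erythroid precursors also divide, and the erythroid transcripts described next rose on the same arrays; their part in the cell cycle signal was not tested.

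The letters TTCCCGC, the core of the sequence that E2F factors bind, were in 8 of the 19 promoters available for the 20 replication genes that rose (42.1%), against 8.47% of the 7027 promoters of all named genes and 10.3% of those of called rises. They were in 0 of the 17 promoters available for the 20 mitosis genes that rose. The promoters of Uhrf1 and Rrm1, a subunit of ribonucleotide reductase, are printed because these were the 2 largest rises that held the letters (Uhrf1 at chr17:56303087-56303386, plus strand; Rrm1 at chr7:102441445-102441744, plus strand; GRCm38.p6, RefSeq). Rrm1, named after its values were seen, read 9.39 and 9.63 against 6.17 and 6.26. The capitals mark the letters on either strand.
Uhrf1: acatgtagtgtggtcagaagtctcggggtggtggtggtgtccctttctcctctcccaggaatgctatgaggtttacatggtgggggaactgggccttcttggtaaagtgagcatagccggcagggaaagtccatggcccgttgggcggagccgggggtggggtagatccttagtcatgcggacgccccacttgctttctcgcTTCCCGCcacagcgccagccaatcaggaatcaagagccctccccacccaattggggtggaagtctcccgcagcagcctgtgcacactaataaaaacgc
Rrm1: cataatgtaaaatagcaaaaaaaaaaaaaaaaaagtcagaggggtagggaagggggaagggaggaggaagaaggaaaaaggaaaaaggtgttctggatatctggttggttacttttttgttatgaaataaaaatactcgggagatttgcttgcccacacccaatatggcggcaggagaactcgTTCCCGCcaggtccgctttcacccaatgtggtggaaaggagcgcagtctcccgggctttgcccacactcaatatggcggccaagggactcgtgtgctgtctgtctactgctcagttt

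Erythroid genes rose in the sorted cells. Slc4a1, the anion exchanger band 3 of the red cell membrane, read 13.11 and 11.37 on the AT-3 arrays and 6.76 and 6.31 on the wild-type arrays. Alas2, the heme synthesis enzyme of erythroid cells, read 12.02 and 10.18 against 6.51 and 6.06. AT-3 array 1 was the higher of its pair in both, and no wild-type array overlapped with an AT-3 array. Slc4a1 rose by 5.70 ± 0.53 (adjusted p = 0.000816) and Alas2 by 4.81 ± 0.54 (adjusted p = 0.00137). The alpha globin gene Hba-a1 read 15.02 and 14.76 against 12.40 and 12.04 and rose by 2.67 ± 0.28 (adjusted p = 0.00116), and Car2, a carbonic anhydrase abundant in red cells, was at least 6.06-fold higher. Of 12 measured erythroid genes 9 rose, with a median of 2.39, and 7 to 10 rose with 1 AT-3 or wild-type array left out. Their summed raw signal was 113738 and 79391 units on the AT-3 arrays and 26175 and 17779 units on the wild-type arrays.

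Genes of protein synthesis and respiration are given relative to other genes, since their medians depended on the scaling. Ribosomal protein genes rose in 24 of 43 cases with a median of 0.73, which became -0.03 with no scaling between arrays, where the median of all genes was -0.60. With 1 AT-3 or wild-type array left out 5 to 16 rose, the fewest without wild-type array 2. Rpl32 read 13.17 and 12.88 against 10.90 and 11.11 and rose by 2.02 ± 0.34 (adjusted p = 0.00469), and Rpl12 rose by 2.00 ± 0.34. Respiratory chain subunits rose in 25 of 36 cases with a median of 0.97, which became 0.02 with no scaling, and in 11 to 20 cases with 1 AT-3 or wild-type array left out, the fewest without wild-type array 1. Ndufa5 of complex I read 9.75 and 9.86 against 7.42 and 7.51 and rose by 2.35 ± 0.21 (adjusted p = 0.000785), Cyc1 of complex III rose by 1.86 ± 0.22, and Uqcrq, another complex III subunit, fell by 1.96 ± 0.27. Glycolysis and hypoxia genes were called higher in 9 of 24 and lower in 3, a called share of 50% against 39.9% over all genes. The rises were led by the phosphofructokinases Pfkp (2.12 ± 0.37) and Pfkl (2.01 ± 0.23), which catalyse the committed step of glycolysis. With 1 AT-3 or wild-type array left out 3 to 5 of these genes rose, the fewest without wild-type array 2. With no scaling the split turned to 2 higher and 10 lower, with a median of -0.57 in place of 0.22.

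Interferon-stimulated genes fell. This group encodes antiviral effectors and sensors and is switched on by type I and type II interferons. Ifit3, which binds viral RNA together with its family, showed the largest fall of any named gene, with 5.33 and 7.28 on the AT-3 arrays and 12.57 and 12.90 on the wild-type arrays. Oasl1, a relative of the oligoadenylate synthetases, read 4.81 and 7.37 against 10.57 and 10.58. Ifit2 read 5.50 and 5.93 against 9.47 and 9.74. In all 3 the wild-type arrays were close together and above both AT-3 arrays, and AT-3 array 2 was the higher of its pair. Ifit3 fell by 6.43 ± 0.61 (adjusted p = 0.000891), Oasl1 by 4.48 ± 0.72 (adjusted p = 0.00414) and Ifit2 by 3.89 ± 0.38 (adjusted p = 0.000891), and all 3 calls were kept under every alternative that gave a value. Ifit3 has a near-identical copy beside it, so its probe may read both. Of 40 measured genes (of 56 listed) 26 fell and the other 14 were not called, with a median of -1.57. With 1 AT-3 or wild-type array left out 11 to 28 fell, the fewest without wild-type array 2. Among the 38 detected in both groups 24 fell.

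The letters AAANNGAAA, the core of the interferon-stimulated response element to which STAT and IRF complexes bind, were in 14 of the 20 promoters available for the 26 genes that fell (70%). They were in 8.28% of the promoters of all named genes, 10.3% of those of all called falls and 7.86% of those of all called rises. Ifit3, Oasl1 and Isg15 are shown because they were the 3 largest falls with at least 2 matches (Ifit3 at chr19:34583279-34583578, plus strand; Oasl1 at chr5:114922990-114923289, plus strand; Isg15 at chr4:156200769-156201068, minus strand; GRCm38.p6, RefSeq). Isg15, a ubiquitin-like modifier named after its values were seen, read 5.60 and 5.94 against 8.92 and 8.81. The capitals mark the letters on either strand, and matches in the Isg15 window overlap.
Ifit3: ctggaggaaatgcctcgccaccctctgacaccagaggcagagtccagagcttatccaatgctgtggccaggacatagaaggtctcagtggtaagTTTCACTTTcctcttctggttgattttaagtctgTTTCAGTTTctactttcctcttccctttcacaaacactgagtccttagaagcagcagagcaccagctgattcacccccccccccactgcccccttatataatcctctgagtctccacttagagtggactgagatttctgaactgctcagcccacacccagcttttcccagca
Oasl1: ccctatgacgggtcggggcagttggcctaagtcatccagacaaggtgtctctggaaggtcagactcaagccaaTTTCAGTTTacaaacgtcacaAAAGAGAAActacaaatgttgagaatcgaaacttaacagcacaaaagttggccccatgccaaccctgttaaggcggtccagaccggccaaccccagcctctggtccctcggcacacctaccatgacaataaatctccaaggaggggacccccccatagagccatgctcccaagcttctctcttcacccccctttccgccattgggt
Isg15: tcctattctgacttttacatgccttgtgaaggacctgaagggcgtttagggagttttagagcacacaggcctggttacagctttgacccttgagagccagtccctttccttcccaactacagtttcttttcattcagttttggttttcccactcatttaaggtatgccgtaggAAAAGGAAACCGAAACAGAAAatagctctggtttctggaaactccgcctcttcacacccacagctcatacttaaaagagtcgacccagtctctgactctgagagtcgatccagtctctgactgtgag

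The list of IRF and STAT factors of interferon and cytokine signalling also holds their kinases and feedback inhibitors. Of its 26 measured genes 13 fell and 3 rose, a called share of 61.5% against 39.9% over all genes. With 1 AT-3 or wild-type array left out 4 to 11 fell, the fewest without wild-type array 2. Irf7, which amplifies type I interferon responses, read 5.79 and 7.52 against 10.45 and 10.25 and fell by 3.70 ± 0.67 (adjusted p = 0.00628). Stat4, which transmits interleukin-12 signals, fell by 1.91 ± 0.27. Stat3, which G-CSF and interleukin-6 activate, read 10.87 and 10.90 against 11.08 and 11.14 and was not called (difference -0.23 ± 0.20, adjusted p = 0.413). Socs3, its feedback inhibitor, read 10.09 and 11.89 against 13.42 and 13.36, a difference of -2.40 ± 0.54 whose call was lost without either wild-type array. Stat5a differed by -0.68 ± 0.22 (adjusted p = 0.0472), and this call was lost in every fit without 1 AT-3 or wild-type array. Cish, a feedback inhibitor that STAT5 induces, went up, from 6.42 and 6.72 to 9.10 and 8.39, a rise of 2.18 ± 0.37 (adjusted p = 0.00521). Il3ra, the interleukin-3 receptor chain, rose by 1.87 ± 0.26. In contrast Csf1, the macrophage growth factor, read 4.96 and 5.54 against 8.78 and 8.85 and fell by 3.57 ± 0.25 (adjusted p = 0.000494), and Tgfbr2, a receptor for TGF-beta, fell by 2.18 ± 0.29.

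Of the 3 genes of this list that rose, Cish and Irf8 hold the letters TTCNNNGAA to which STAT dimers bind, 2 matches each. Those letters were in 3 of the 13 promoters of the list's falls and in 7.06% of the promoters of all named genes. Both windows are printed as the STAT feedback and IRF genes that rose (Cish at chr9:107296409-107296708, plus strand; Irf8 at chr8:120736108-120736407, plus strand; GRCm38.p6, RefSeq), with the letters in capitals.
Cish: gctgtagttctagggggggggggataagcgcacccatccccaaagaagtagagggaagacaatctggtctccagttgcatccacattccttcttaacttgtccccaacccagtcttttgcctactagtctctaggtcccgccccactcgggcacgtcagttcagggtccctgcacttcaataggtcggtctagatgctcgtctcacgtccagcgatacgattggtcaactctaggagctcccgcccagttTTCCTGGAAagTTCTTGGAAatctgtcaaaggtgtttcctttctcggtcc
Irf8: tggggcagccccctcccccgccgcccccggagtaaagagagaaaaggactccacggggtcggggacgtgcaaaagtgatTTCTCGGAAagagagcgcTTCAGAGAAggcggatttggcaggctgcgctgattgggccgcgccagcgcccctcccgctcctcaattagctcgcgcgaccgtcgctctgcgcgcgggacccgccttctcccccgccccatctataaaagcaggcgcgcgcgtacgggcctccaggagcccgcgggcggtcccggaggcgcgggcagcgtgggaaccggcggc

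**Figure D4:**
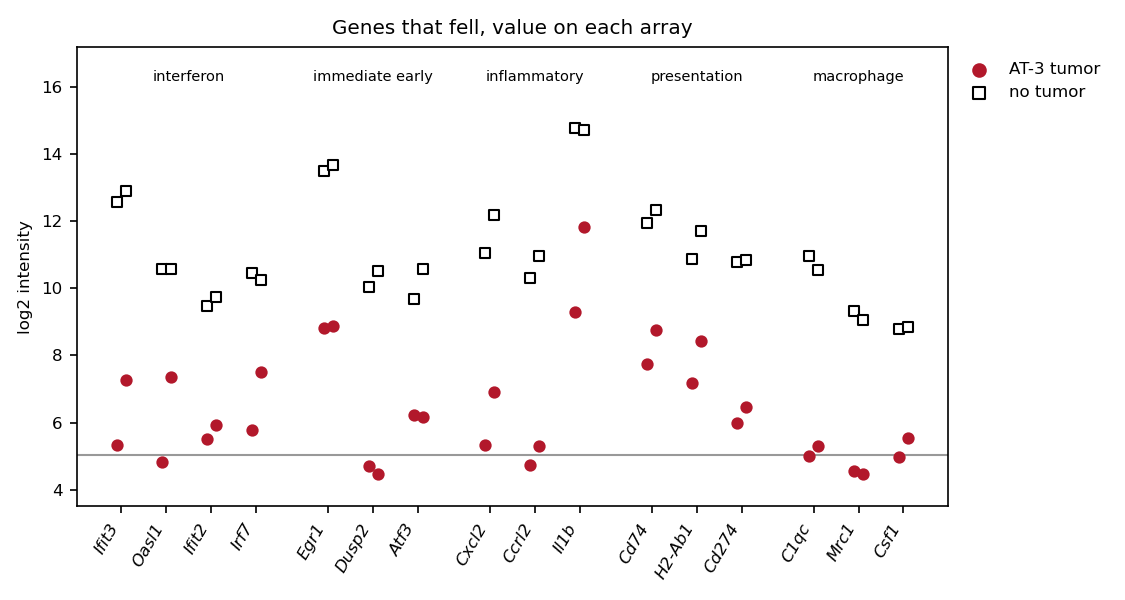
Log2 intensity on each of the 4 arrays for 16 genes that fell. Circles are AT-3 arrays and squares wild-type arrays, 2 each, grouped by kind; the grey line at 5.04 is the highest, over the 4 arrays, of the lowest level that counted as detected. All wild-type points lie above all AT-3 points of the same gene, and the AT-3 points of Dusp2, Ccrl2, Mrc1, C1qc and Csf1 lie at or near the grey line.

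Stress and immediate early genes, whose transcripts appear within minutes of a stimulus, fell in 26 of 34 cases, with a median of -2.18. Egr1, a zinc finger factor of this class, read 8.82 and 8.88 on the AT-3 arrays and 13.50 and 13.69 on the wild-type arrays. Dusp2, a phosphatase that switches off MAP kinases, was detected on neither AT-3 array and read 10.04 and 10.53 on the wild-type arrays. Atf3 read 6.22 and 6.17 against 9.69 and 10.57, and Junb, a partner of the AP-1 complex, read 11.35 and 12.09 against 14.82 and 14.94. The wild-type arrays lay above the AT-3 arrays for all 4 genes, with no overlap. Egr1 fell by 4.75 ± 0.53 (adjusted p = 0.00135), Dusp2 was at least 37.9-fold lower (adjusted p = 0.000236), Atf3 fell by 3.94 ± 0.49 (adjusted p = 0.00183) and Junb by 3.16 ± 0.40 (adjusted p = 0.00196). Egr2 was at least 10.2-fold lower. From the list 19 to 24 genes fell with 1 AT-3 or wild-type array left out.

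NF-kappaB genes and the inflammatory mediators that this pathway switches on were lower as well. Of 23 measured TNF and NF-kappaB genes 15 fell, with a median of -1.32, and 5 to 12 fell with 1 AT-3 or wild-type array left out, the fewest without wild-type array 2. Tnfaip3, which encodes the feedback inhibitor A20, read 6.16 and 5.23 against 8.22 and 9.24 and fell by 3.03 ± 0.70 (adjusted p = 0.0152); this call was lost without background correction, without wild-type array 2 and without AT-3 array 2. Relb, a subunit of NF-kappaB, fell by 2.56 ± 0.48 (adjusted p = 0.0072), a call lost without wild-type array 2. Chemokine ligands fell in 7 of 10 cases, and in 4 to 7 with 1 AT-3 or wild-type array left out, the fewest without wild-type array 2. Cxcl2, which attracts neutrophils, read 5.34 and 6.90 on the AT-3 arrays and 11.06 and 12.20 on the wild-type arrays and fell by 5.51 ± 0.78 (adjusted p = 0.00279). Ccl4, which attracts lymphocytes and monocytes, fell by 3.84 ± 0.45 (adjusted p = 0.00155), and Ccl6 read 8.80 and 8.87 against 11.59 and 11.62 and fell by 2.77 ± 0.27. Ccl9 was the exception, with 12.17 and 12.43 against 10.13 and 10.10, a rise of 2.18 ± 0.21 (adjusted p = 0.000897).

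The interleukin-1 system showed a fall of ligands together with a rise of 1 adaptor. Il1b, encoding the cytokine interleukin-1 beta, read 9.29 and 11.83 on the AT-3 arrays and 14.79 and 14.71 on the wild-type arrays. AT-3 array 1 was well below AT-3 array 2, and both lay under the wild-type pair, whose values were nearly equal. Il1b fell by 4.19 ± 0.73 (adjusted p = 0.00551) and Il1rn, its soluble antagonist, by 3.66 ± 0.50 (adjusted p = 0.00243). Pycard, the ASC adaptor on which inflammasomes assemble, read 8.89 and 8.57 against 5.75 and 5.75 and rose by 2.98 ± 0.22 (adjusted p = 0.000494). Of 21 measured genes of the system 8 fell, 1 rose and 12 were not called, a called share of 42.9%, near the 39.9% over all genes. The number of falls depended on which array was left out, and the median of -0.57 then ranged from -0.63 to -0.42.

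The letters GGANNTTCC, a form of the sequence that NF-kappaB binds, were in 5 of the 12 promoters available for the TNF and NF-kappaB genes that fell (41.7%) and in 2 of the 5 for the chemokine ligands that fell. They were in 4.82% of the promoters of all named genes and in 4.7% of those of all called falls. The promoters of Cxcl2, the largest fall among the chemokines, and Nfkbia, which encodes the inhibitor that retains NF-kappaB in the cytoplasm and holds 2 matches, are printed with the letters in capitals (Cxcl2 at chr5:90903649-90903948, plus strand; Nfkbia at chr12:55492598-55492897, minus strand; GRCm38.p6, RefSeq). Nfkbia, named after its values were seen, read 10.17 and 10.21 against 11.67 and 12.49, and its call (adjusted p = 0.0185) was lost without wild-type array 2 and without either AT-3 array.
Cxcl2: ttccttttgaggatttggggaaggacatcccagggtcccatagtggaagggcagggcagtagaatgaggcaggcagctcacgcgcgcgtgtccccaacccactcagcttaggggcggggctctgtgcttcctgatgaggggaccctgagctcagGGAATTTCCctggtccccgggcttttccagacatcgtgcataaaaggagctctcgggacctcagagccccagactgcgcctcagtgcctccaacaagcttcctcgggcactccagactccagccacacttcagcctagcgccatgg
Nfkbia: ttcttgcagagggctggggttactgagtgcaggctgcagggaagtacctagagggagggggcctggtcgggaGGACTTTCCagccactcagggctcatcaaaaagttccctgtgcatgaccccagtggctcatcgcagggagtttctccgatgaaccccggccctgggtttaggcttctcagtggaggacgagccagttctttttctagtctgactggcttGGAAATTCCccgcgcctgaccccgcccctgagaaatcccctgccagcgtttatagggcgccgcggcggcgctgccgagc

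Antigen presentation genes fell in both classes. Cd74, the invariant chain that guides class II molecules, read 7.76 and 8.76 on the AT-3 arrays and 11.94 and 12.33 on the wild-type arrays. H2-Ab1, a class II beta chain, read 7.19 and 8.43 against 10.87 and 11.72. Cd274, the gene of the checkpoint ligand PD-L1, read 5.99 and 6.47 against 10.78 and 10.85, and the pairs of all 3 genes lay apart. Cd74 fell by 3.87 ± 0.42 (adjusted p = 0.00128), H2-Ab1 by 3.48 ± 0.53 (adjusted p = 0.00358) and Cd274 by 4.59 ± 0.25 (adjusted p = 0.000259). The dendritic cell maturation marker Cd83 was at least 5.93-fold lower. Of 19 measured class II and costimulation genes 12 fell, 9 of the 16 detected in both groups, and 8 to 10 with 1 AT-3 or wild-type array left out. Ifi30, the lysosomal thiol reductase that unfolds antigens, rose from 8.90 and 9.12 to 11.22 and 11.74 (2.47 ± 0.26, adjusted p = 0.00116).

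Class I genes fell in 11 of 18 cases, with a median of -0.88, and in 4 to 10 with 1 AT-3 or wild-type array left out, the fewest without wild-type array 1. The heavy chain gene H2-K1 read 7.86 and 8.19 against 9.87 and 9.74 and fell by 1.78 ± 0.22 (adjusted p = 0.00178). Nlrc5, the transactivator of class I genes, fell by 1.97 ± 0.26 (adjusted p = 0.00213). Class I heavy chains are near-identical in sequence, so the probes of H2-K1 and H2-Q7 (-1.95) may read their relatives. Calr, the chaperone calreticulin, rose by 2.63 ± 0.49 (adjusted p = 0.00686).

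Of the 22 measured macrophage genes 14 fell and 4 rose, a called share of 81.8% against 39.9% over all genes. C1qc, C1qb and C1qa encode the chains of complement C1q, which macrophages make. C1qc read 4.9997 and 5.30 on the AT-3 arrays and 10.96 and 10.56 on the wild-type arrays. C1qb read 5.81 and 6.003 against 10.94 and 10.79. Vcam1, an adhesion molecule of red pulp macrophages, read 5.61 and 6.55 against 11.68 and 11.49. The AT-3 values were near the detection limit or little above it, and the wild-type values far above it. C1qc fell by 5.61 ± 0.27 (adjusted p = 0.000236), C1qb by 4.96 ± 0.28 (adjusted p = 0.000259) and Vcam1 by 5.51 ± 0.41 (adjusted p = 0.000494), C1qa was at least 10.6-fold lower, and Mrc1, the mannose receptor, at least 17.8-fold lower. The iron exporter Slc40a1 fell by 2.09 ± 0.21 and the heme-degrading enzyme Hmox1 by 2.22 ± 0.39. Their list of iron and heme genes went both ways, with 4 of 21 measured genes higher, 6 lower and a median of -0.13. Its called share of 47.6% was near the 39.9% over all genes. Csf1r, the receptor for Csf1, fell by 1.45 ± 0.27, a call lost without wild-type array 1 and with the mean of its probes.

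Gpnmb, a glycoprotein of phagocytes, was in contrast detected on no wild-type array and read 9.79 and 7.65 on the AT-3 arrays, at least 13.6-fold higher. Trem2, a lipid-sensing receptor, read 9.23 and 9.10 against 5.76 and 6.08 and rose by 3.25 ± 0.22 (adjusted p = 0.000449), and Msr1, a scavenger receptor, rose by 1.63 ± 0.25. Of the 15 macrophage genes detected in both groups 8 fell. With 1 AT-3 or wild-type array left out 10 to 12 fell. The summed raw signal of the list was 30756 and 29518 units on the AT-3 arrays and 53041 and 50050 units on the wild-type arrays. These sums are not scaled between arrays, and the mean signal over all probes was also lower on the AT-3 arrays (284 and 265 against 397 and 379 units). The part of macrophage transcripts in the falls of the class II and interferon-stimulated genes was not tested.

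Among 27 monocyte genes 9 rose and 10 fell, a called share of 70.4% against 39.9% over all genes. Fn1, encoding fibronectin, showed the largest rise of any named gene, with 12.003 and 10.98 on the AT-3 arrays and 5.98 and 4.81 on the wild-type arrays. F13a1, encoding a coagulation factor subunit made by monocytes, read 12.35 and 11.70 against 7.49 and 7.16. Ccr2, the receptor by which classical monocytes leave the marrow, read 8.44 and 9.26 against 5.15 and 5.54. No AT-3 value of these genes overlapped with a wild-type value. Fn1 rose by 6.10 ± 0.48 (adjusted p = 0.000591), F13a1 by 4.70 ± 0.65 (adjusted p = 0.00263) and Ccr2 by 3.51 ± 0.31 (adjusted p = 0.000781). In the other direction Ace, which nonclassical monocytes carry, was detected on neither AT-3 array and at least 13.2-fold lower, Treml4, another gene of these cells, fell by 2.88 ± 0.46 (adjusted p = 0.00408), and Hpgd, which breaks down prostaglandins, fell by 3.27 ± 0.26. With 1 AT-3 or wild-type array left out 7 to 8 rose and 4 to 10 fell, the fewest without wild-type array 1.

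Genes by which suppressor cells are known to act did not move as a block: 3 of 27 rose and 9 fell (44.4% called, near the 39.9% over all genes). Arg1, encoding the arginase of suppressor cells, was low in both groups, at 5.65 and 5.64 against 5.23 and 5.37, and was not called (difference 0.34 ± 0.21, adjusted p = 0.238; -0.016 with no scaling). Nos2, the inducible nitric oxide synthase, read 5.04 and 6.67 against 4.94 and 4.99, with AT-3 array 2 alone clearly above the detection limit, and was not called either (adjusted p = 0.184). Arg2 read 8.89 and 10.41 against 11.75 and 11.95 and fell by 2.20 ± 0.58 (adjusted p = 0.0236), a call lost without AT-3 array 1 or either wild-type array. Prok2, a secreted factor of neutrophils that promotes vessel growth, rose from 6.21 and 6.15 to 9.33 and 11.50 (4.24 ± 0.68, adjusted p = 0.00409). Tnfrsf10b, a death receptor for TRAIL, rose by 1.62 ± 0.22. Slc7a11, the cystine importer, was detected on neither AT-3 array by its brightest probe and at least 22.8-fold lower, but this bound holds for that probe only. Another probe of the gene was detected there, and with the mean of its probes the difference was -1.85 (adjusted p = 0.00457). Of 18 oxidase and antioxidant genes 3 rose and 1 fell, a called share of 22.2% against 39.9% over all genes. Gclm, a subunit of the enzyme that starts glutathione synthesis, rose by 2.05 ± 0.23 (adjusted p = 0.00142), and Prdx1, a peroxiredoxin, by 1.88 ± 0.26 (adjusted p = 0.00268).

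Among receptors by which myeloid cells sense their surroundings, 2 lists had called shares near the 39.9% over all genes, and chemokine and attractant receptors had a larger share. Among Toll-like and C-type lectin receptors 9 of 27 fell and 3 rose (44.4% called), and 4 to 8 fell with 1 AT-3 or wild-type array left out, the fewest without wild-type array 1. Clec4n, the Dectin-2 receptor for fungal mannans, read 5.98 and 6.97 against 10.60 and 10.38 and fell by 4.02 ± 0.33 (adjusted p = 0.000665). Clec7a, the Dectin-1 receptor for beta-glucans, fell by 2.76 ± 0.51, a call lost without wild-type array 1. Ticam2, an adaptor of Toll-like receptor 4, rose by 1.58 ± 0.23. Of 27 Fc receptor, integrin and adhesion genes 8 fell and 3 rose (40.7% called), the falls led by Jaml (-3.63), Icam1 (-1.95) and Itga5 (-1.71), and 5 to 8 fell with 1 AT-3 or wild-type array left out, the fewest without wild-type array 2. Of 13 chemokine and attractant receptors 7 fell and 3 rose (76.9% called), and among the 10 detected in both groups 4 fell and 3 rose. Ccrl2, which presents chemerin, read 4.73 and 5.29 against 10.30 and 10.97 and fell by 5.62 ± 0.59 (adjusted p = 0.00116). Cxcr4, which retains neutrophils in the marrow, read 9.68 and 9.48 against 11.70 and 11.95 and fell by 2.24 ± 0.22 (adjusted p = 0.000891), and Cxcr3 was at least 3.77-fold lower. Ltb4r1, the receptor for leukotriene B4, rose by 1.78 ± 0.26 (adjusted p = 0.00325).

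Survival, lysosomal and lipid genes showed large changes of single members. Bcl2a1d and Bcl2a1b, anti-apoptotic relatives of BCL2 induced by NF-kappaB, read 5.44 and 5.85 and 6.31 and 6.06 on the AT-3 arrays against 9.94 and 10.03 and 9.83 and 9.96 on the wild-type arrays. They fell by 4.34 ± 0.23 (adjusted p = 0.000236) and 3.70 ± 0.25 (adjusted p = 0.000449), but these genes are near-identical copies whose probes may read each other. Bmf, a pro-apoptotic member of the family, fell by 2.39 ± 0.27, and Casp6 rose by 1.77 ± 0.30. Over the wider list of BCL2 family and death genes 5 of 24 rose and 11 fell, a called share of 66.7% against 39.9% over all genes. Of all genes 19.8% rose and 20.1% fell. Fewer genes of the list were called with 1 AT-3 or wild-type array left out. The list's median of -0.21 then ranged from -0.37 to -0.13. Of 24 lysosomal genes 4 rose and 5 fell, with a median of 0.11 and a called share of 37.5% against 39.9% over all genes. The rises were led by Ctsc (2.29). Tfeb, a regulator of lysosomal genes, fell by 2.26 ± 0.39, and Lipa, the lysosomal acid lipase, by 1.73 ± 0.30. In lipid metabolism Fdps, an enzyme of the mevalonate pathway, read 10.83 and 10.90 against 7.67 and 7.86 and rose by 3.10 ± 0.26 (adjusted p = 0.000665). Abcg1, which exports cholesterol, fell by 3.46 ± 0.31 (adjusted p = 0.000781), and Nr1h3, the LXR alpha receptor that induces it, was at least 8.94-fold lower.

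Markers of the remaining lineages had called shares below that over all genes (39.9%). In the B cell list 1 of 10 measured genes rose, Faim, a death receptor antagonist found outside B cells as well, and in the T and NK cell list 1 of 5 fell, Klrd1, the CD94 receptor chain. Their differences of 0.90 and -1.29 were no longer called without either AT-3 array or without wild-type array 2. Of 16 dendritic cell genes 2 rose and 4 fell (37.5% called), the falls led by Cd83 and Dnase1l3, the latter at least 4.48-fold lower, and of 6 megakaryocyte and platelet genes 2 fell (33.3%), Vwf of platelets and endothelium (at least 2.2-fold lower) and the tetraspanin Cd9 (-1.36, a call lost without wild-type array 1). Of 4 eosinophil, basophil and mast cell genes 1 fell, the eotaxin receptor Ccr3 (at least 2.46-fold lower), and of 9 stem and progenitor genes 1 fell, Tal1, by 1.15 ± 0.24, a call lost without either wild-type array and with the median of the detected probes set equal.

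Genes detected in 1 group only add to these groups. Brightest among those found on both AT-3 arrays and no wild-type array were Tyms, Ctsg, Gpnmb, Col5a1 and Psat1. Col5a1, a chain of type V collagen, read 9.16 and 8.33 on the AT-3 arrays and was at least 13.7-fold higher, and Psat1, an enzyme of serine synthesis, read 8.32 and 8.82 and was at least 12.2-fold higher. In the other direction the brightest were Dusp2, Mrc1, Itgad, Sema7a and Asb2. Itgad, the CD11d integrin of splenic macrophages, read 9.37 and 9.09 on the wild-type arrays and was at least 18.2-fold lower on the AT-3 arrays. Sema7a, a membrane-bound semaphorin, was at least 17.7-fold lower and Asb2, a substrate receptor of a ubiquitin ligase, at least 17.3-fold lower. These genes passed the rule through the group in which they were bright, so their direction is fixed by the choice.

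Several of the largest differences lay outside all gene lists. Lgals1, which encodes galectin-1, read 11.08 and 11.67 on the AT-3 arrays and 7.07 and 6.83 on the wild-type arrays, and S100a10, the partner of annexin A2, read 9.53 and 9.58 against 4.70 and 5.55. Both AT-3 values of each gene lay far above both wild-type values. Lgals1 rose by 4.42 ± 0.38 (adjusted p = 0.000709) and S100a10 by 4.43 ± 0.33 (adjusted p = 0.000494). Prxl2a, a peroxiredoxin-like protein, read 11.61 and 8.94 against 5.83 and 5.61, with AT-3 array 1 the higher of its pair, and rose by 4.56 ± 0.73 (adjusted p = 0.00409). Among the falls Cass4, a scaffold protein of the Cas family, read 7.13 and 8.31 against 13.29 and 13.43 and fell by 5.64 ± 0.37 (adjusted p = 0.000425). Hcar2, the receptor for niacin and hydroxybutyrate, read 5.32 and 7.49 against 11.37 and 11.77 and fell by 5.16 ± 0.90 (adjusted p = 0.00555). Vnn3, a vanin, fell by 5.01 ± 0.36 (adjusted p = 0.000494), Prr5l, which binds mTOR complex 2, by 4.63 ± 0.66 (adjusted p = 0.00278) and Slc12a2, a sodium, potassium and chloride cotransporter, by 4.62 ± 0.23 (adjusted p = 0.000236).

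The AT-3 arrays were last set directly against the 2 arrays from tumor-free IRF8 KO mice. Of the 10919 genes 1344 (12.3%) were called, and 1436 of all 12492 genes; without AT-3 array 2 the latter count was 442, without AT-3 array 1 it was 834, and in a fit without the wild-type arrays it was 607. Among the genes with the largest tumor differences, Slc4a1, Alas2 and Fn1 were furthest above the IRF8 KO arrays. Slc4a1 read 4.77 and 5.27 on the IRF8 KO arrays, and the AT-3 arrays were higher by 7.22 ± 0.53 (adjusted p = 0.000458). Alas2 was detected on neither IRF8 KO array and was at least 76.7-fold higher on the AT-3 arrays (adjusted p = 0.000684), and Fn1 read 5.12 and 4.50, a difference of 6.68 ± 0.48 (adjusted p = 0.00045). Slc4a1 and Fn1 were each detected on 1 of the 2 IRF8 KO arrays. In the other direction Cxcl2 read 10.997 and 13.15 on the IRF8 KO arrays, and the AT-3 arrays fell by 5.96 ± 0.78 below them (adjusted p = 0.0052). Ccrl2 read 8.44 and 10.39 on the IRF8 KO arrays, where AT-3 cells were lower, a difference of -4.41 ± 0.59 (adjusted p = 0.00568), and Dusp2, detected on neither AT-3 array, read 8.39 and 9.09 on the IRF8 KO arrays and was at least 12.99-fold lower on the AT-3 arrays (adjusted p = 0.000458). These 6 genes were chosen as the largest such differences.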

How the data were processed

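Splenic Gr-1high cells were profiled on 6 Illumina bead arrays, 2 for each group. The deposited table of unnormalized values holds, per the file headers, 1 linear signal intensity and 1 detection p-value for each probe and array. Per the submitters' processing notes, GenomeStudio was used. The deposited series matrix holds log2 values, and it matched a quantile normalization of the log2 intensities without background correction, with array medians of 6.91 to 6.92; its scale, centring and direction were therefore settled by comparison.

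All 6 arrays were put through neqc of limma 3.58.1 (R 4.3.3): normexp correction from the detection p-values with an offset of 16, then quantile normalization and log2. The tested set held probes detected at 0.05 on 2 or more of the 6 arrays, reduced to the brightest for a gene (12492 genes); it was analysed by lmFit with 3 group means and eBayes (3 residual and 4.29 prior degrees of freedom). The fit was tested on simulated data. Of 3521 genes with several probes 19 had probes called in both directions. Symbols came from the platform annotation, updated through Entrez numbers for 34807 probes and through accessions for 11, while 67 kept the platform's symbol; 18 probes had several symbols and 10378 none, and these were left unnamed. Ly6g, Cd79a and Mki67 have no probe under these symbols, and Stat5b and Cd3e were not detected on 2 of the 4 arrays.

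The gene lists, the markers and the comparison itself were chosen with earlier results of these data known. Genes were named as the 15 largest rises and falls, the up to 3 largest called rises and falls of a list, a set of granulocyte and suppressor genes, the 5 brightest genes found in 1 group only and, against IRF8 KO, the 3 largest differences each way; single genes named otherwise are marked in the text. Where an array was left out and its group kept 1, that array was taken to vary like the others. The replicate numbers did not pair the arrays: deviations of same-numbered arrays from their group means correlated with r = -0.06 between AT-3 and wild type. Alternatives changed the background correction, scaling, filter, probe choice, test and arrays.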

Additional observations from a re-analysis of the deposited data

How the results depend on the processing

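Against 4360 genes called, with 2160 higher and 2198 lower in AT-3 cells among the 10919 genes, an adjusted p under 0.01 left 2080, with 1025 higher and 1055 lower. Leaving out 1 array at a time gave 1531 to 4987 calls, 760 to 2479 higher and 771 to 2497 lower, fewest without a wild-type array. With the median of all probes set equal 773 were higher and 4649 lower, and with no scaling 734 and 4834. The other settings stayed within 1.5 times: 4085 without background correction and on the authors' values, 3693 with no filter and 3198 with detection on all 6 arrays. AT-3 against IRF8 KO gave 1436 calls, and 4652, 6447 and 7079 with the medians of detected probes, of all probes and no scaling, 607 with only the arrays compared, 411 at an adjusted p under 0.01 and 442 to 1596 with 1 array left out. The replicate number as a block gave 4154 calls (1279 against IRF8 KO), 4012 of them shared, and since the numbers mark no known pairing it was not preferred. Of 146 genes named with values 137 were called, and 113 of them kept the call under every alternative that gave a value. Mmp9, Ms4a1 and Arg1, uncalled, changed sign: Mmp9 to 0.066 and Ms4a1 to 0.437 when detected probes shared 1 median, Arg1 to -0.016 with no scaling. With no filter the calls of Cxcr2, Socs3, Arg2, Tnfaip3, Nfkbia and Klrd1 were also lost. The call of Klrd1 was lost as well without background correction and on the authors' values. The causes of these changes were not tested. Dim genes limit the folds: 731 called genes were undetected in the dimmer group, 258 of them higher and 473 lower. Without background correction the differences of the 413 called list and named genes shrank to a median of 0.768 times.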
